A study of Mus musculus with 10 samples.

Results

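Strong RNA polymerase II (Pol II) peaks found in mouse embryonic fibroblasts (MEFs) and not in mouse embryonic stem (ES) cells are described here. A peak was taken when it lay on an autosome, was narrower than 4000 bp, had a deposited score at or above the 75th percentile of the MEF Pol II list (244.41), and had no ES Pol II peak within 1000 bp. Of the 13306 peaks of the MEF list, 379 met the rule. They came from 3102 strong peaks, meaning peaks that met the limits on chromosome, width and score. The other 2723 strong peaks had an ES peak within 1000 bp and are called shared below. The 379 were thus chosen by their score, their width and the lack of an ES call, and these values are given below as a description only.

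The peaks come from ChIP-seq, in which DNA bound by a protein is enriched with an antibody, sequenced and reduced to intervals of the genome. The ES cells were ES-E14TG2a, an established mouse line, kept on gelatin in medium with LIF and serum. The MEFs were primary fibroblasts isolated from E12.5 embryos (whether pooled is not given) and passaged 3 to 5 times in the same kind of medium without LIF. Both were fixed at 80% confluence, no treatment was applied, and the genotype or strain is not given in the labels. Each cell type had 1 library for Pol II (N-20 antibody) and 1 for each of POLR3C, POLR3G and POLR3GL, subunits of RNA polymerase III (Pol III). How deeply each library was sequenced is unknown. With 1 library per cell type there is no replicate error, so no difference below was tested, and the 95% intervals cover counting error over peaks only. Peaks of 1 library are not replicates of a condition.

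Pol II transcribes protein-coding genes and many non-coding RNAs. It assembles at promoters, often pauses shortly after the start site, and then moves along the gene, so that a peak can mark a start, a paused polymerase or a stretch of elongation. Fibroblasts and stem cells share a large set of housekeeping promoters and differ at genes for matrix, adhesion and cell identity. The files carry positions on the mm9 build and no gene names, and no mm9 annotation was used, so each peak is named by its position. Whether it lies in a gene, exon, intron or UTR was not analysed here, and neither were marker genes of the 2 cell types.

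Among all 12488 autosomal MEF peaks narrower than 4000 bp, 36.1% had no ES peak within 1000 bp. Among the 3102 strong peaks the share was 12.2% (95% exact Clopper-Pearson interval 11.1 to 13.4%), that is, the 379. In the ES list, treated the same way, 2802 of 6530 strong peaks (42.9%, 41.7 to 44.1%) had no MEF peak within 1000 bp. The ES list held 32345 peaks and the MEF list 13306, and the lengths of the lists bear directly on both shares. A missing ES call here says that the ES list has no peak, not that Pol II was absent.

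The scores of the 379 peaks ran from 244.56 to 2568.95 with a median of 316.01, against a median of 363.14 in the shared peaks. Most of them scored below 400, as did most shared peaks. Between the limit and a score of 300 there were 151 MEF-only peaks among 885 strong peaks (17.1%), and their share was 12.8% at scores of 300 to 400, 8.13% at 400 to 600 and 6% at 600 to 800. From 800 upwards it was 11.7% (16 of 137, interval 6.82 to 18.3%). This interval overlapped that of the class from 600 to 800 (15 of 250, 3.40 to 9.70%), so no rise is read from it. The members just inside the score limit lay at chromosome 1 from 92738807 to 92740927 (244.56), chromosome 19 from 29324770 to 29326132 (244.88) and chromosome 11 from 49063373 to 49064931 (245.02). Just outside it lay chromosome 8 from 36724840 to 36726261 (244.06), chromosome 2 from 160706030 to 160707082 (242.97) and chromosome 10 from 34203050 to 34204153 (242.6). At the limit of distance the step was wider. The nearest ES peak of any member was 1225 bp away, followed by 1386 bp and 1404 bp, while the strong peaks left out for an ES peak that did not touch them came up to 995, 938 and 877 bp. Of the 2723 shared peaks, 2714 overlapped an ES peak and the other 9 had one nearby without overlap.

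The highest-scored of these peaks was short. It lay at chromosome 9 from 35112688 to 35113378, a width of 691 bp, and scored 2568.95, with the nearest ES Pol II peak 36.7 kb away. The next was at chromosome 2 from 98506289 to 98507601 (1467.62, 1313 bp wide). Its nearest ES peak lay 2961 kb away, among the longest distances of the set. The peak at chromosome 17 from 39979908 to 39983847 (1266.39) was, by contrast, one of the widest at 3940 bp and lay 1087 kb from ES Pol II. It was followed by chromosome 15 from 74915871 to 74917584 (1159.73) and chromosome 4 from 3016580 to 3018517 (1094.34). Chromosome 6 from 4455079 to 4459005 (1087.1) was also wide, at 3927 bp, and 91.0 kb from the nearest ES peak. The last 4 of the 10 highest scores were all short. They lay at chromosome 2 from 98502281 to 98503262 (1055.95), chromosome 9 from 3035603 to 3036703 (1051.5), chromosome 4 from 70038767 to 70039587 (1050.88) and chromosome 11 from 108872882 to 108873681 (1011.4), with widths of 982, 1101, 821 and 800 bp.

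**Figure D1:**
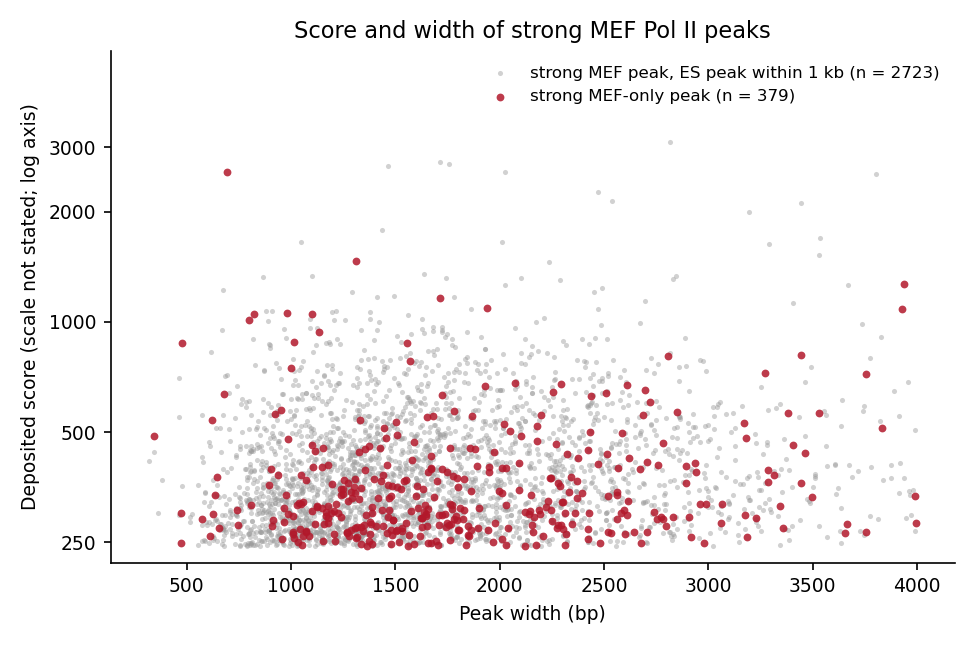
Deposited score (log axis, scale not stated) against peak width (bp) for the 379 strong MEF-only Pol II peaks (red) and the 2723 strong MEF peaks with an ES peak within 1 kb (grey), 1 point per peak. Most red points lie below a score of 400, as do most grey points, and the red point at 2568.95 is only 691 bp wide.

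Over the whole set the MEF-only peaks were somewhat wider than the shared ones. Their median width was 1705 bp (interval 1628 to 1779 bp, quartiles 1306 and 2301 bp), against 1545 bp (1513 to 1573 bp) in the shared peaks and 836 bp in the 4134 MEF-only peaks below the score limit. Width is linked to the score that chose the peaks, so widths were also set side by side in 3 classes of equal size by score. In the lowest class the MEF-only median was 1649 bp (1553 to 1765 bp) and the shared median 1355 bp (1308 to 1413 bp), and these intervals did not overlap. In the middle class the medians were 1677 bp (1506 to 1890 bp) and 1550.5 bp (1497 to 1605 bp), and in the highest class 1904 bp (1649 to 2198 bp) and 1692 bp (1637 to 1743 bp). The intervals overlapped in both of these classes. The widest members were chromosome 19 from 34265916 to 34269912 (3997 bp, score 282.34), chromosome 15 from 57524569 to 57528557 (3989 bp, score 334.79) and the chromosome 17 peak named above. The narrowest, at chromosome 4 from 139130472 to 139130812, was 341 bp wide and scored 487.91.

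At the top of the list narrow and wide members stood side by side. Of the 15 members scored from 600 to 800, 2 were narrower than 1500 bp (13.3%, 1.66 to 40.5%). Of the 16 members scored 800 or more, 9 were (56.2%, 29.9 to 80.2%), against 41 of 121 shared peaks of that score (33.9%, 25.5 to 43.0%). The intervals overlapped in both comparisons. The median distance to ES Pol II was 315.7 kb in these 16, and between 35.0 and 48.9 kb in the score classes below. A limit of 748 score units per kb of width, set so that about 2.5% of the shared peaks exceed it (2.53%, 1.98 to 3.20%), was passed by 13 members (3.43%, 1.84 to 5.79%). These intervals overlapped, and the 13 are described for what they are, not as a trait of the set. These 13 were 341 to 1313 bp wide, and 6 of the 10 highest-scored members were among them. Of the 13, 9 lay more than 100 kb from any ES peak, 4 were on chromosome 2 and 3 on chromosome 12. Position was looked at next, with a limit chosen after seeing the data. Mouse autosomes carry their centromere at the end where numbering starts, and 11 members (2.90%, 1.46 to 5.13%) lay within 500 kb of the first base that any list covers on their chromosome, against 25 of 2723 shared peaks (0.918%, 0.595 to 1.35%). Of the 11, 5 were on chromosome 9 and formed a single group, described below. The 11 are therefore not independent, the interval does not allow for this, and no trait of the set is read from it. Together the limits per kb and of position took in 22 members, and without them the median width was 1742 bp and the median distance to ES Pol II 44.2 kb. Of the 16 members scored 800 or more, 5 were left, with a median distance of 91.0 kb and a median width of 3445 bp, and leaving out peaks by score per kb removes narrow peaks of high score by construction. The repeat content, mappability and input signal were not analysed here for these 22 or for any other member, the wide chromosome 17 peak of score 1266.39 included, and whether such high scores come from repeated sequence was not tested.

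Every autosome held members, from 11 on chromosomes 14 and 16 to 30 on chromosome 2. Over the length covered by the lists, the density was 0.158 per Mb, from 0.0953 per Mb on chromosome 14 to 0.241 per Mb on chromosome 19, where 14 members lay. Chromosome 9, with 27 members, had 0.223 per Mb, chromosome 18 0.194 and chromosome 11 0.194. This range of 2.53 times was close to that of all strong MEF peaks, 2.76 times, which were densest on chromosome 11 (2.39 per Mb) and also sparsest on chromosome 14 (0.867 per Mb). The share of strong peaks that were MEF-only takes this common density out. It was highest on chromosome 3 (29 of 164, 17.7%, 12.2 to 24.4%), followed by chromosome 1 (28 of 181, 15.5%, 10.5 to 21.6%) and chromosome 18 (17 of 112, 15.2%, 9.10 to 23.2%). It was lowest on chromosome 7 (18 of 243, 7.41%, 4.45 to 11.5%), chromosome 11 (23 of 284, 8.10%, 5.20 to 11.9%) and chromosome 17 (12 of 141, 8.51%, 4.48 to 14.4%). Chromosomes 7 and 11, both rich in strong MEF peaks, were the only ones of 19 whose interval did not reach the share over all autosomes, 12.2%. Neighbours in this order had overlapping intervals throughout. In the ES list chromosome 7 had 43.1% and chromosome 11 41.9% of strong peaks without a MEF peak, near the 42.9% of all autosomes, and chromosome 18 had 34.5%.

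**Figure D2:**
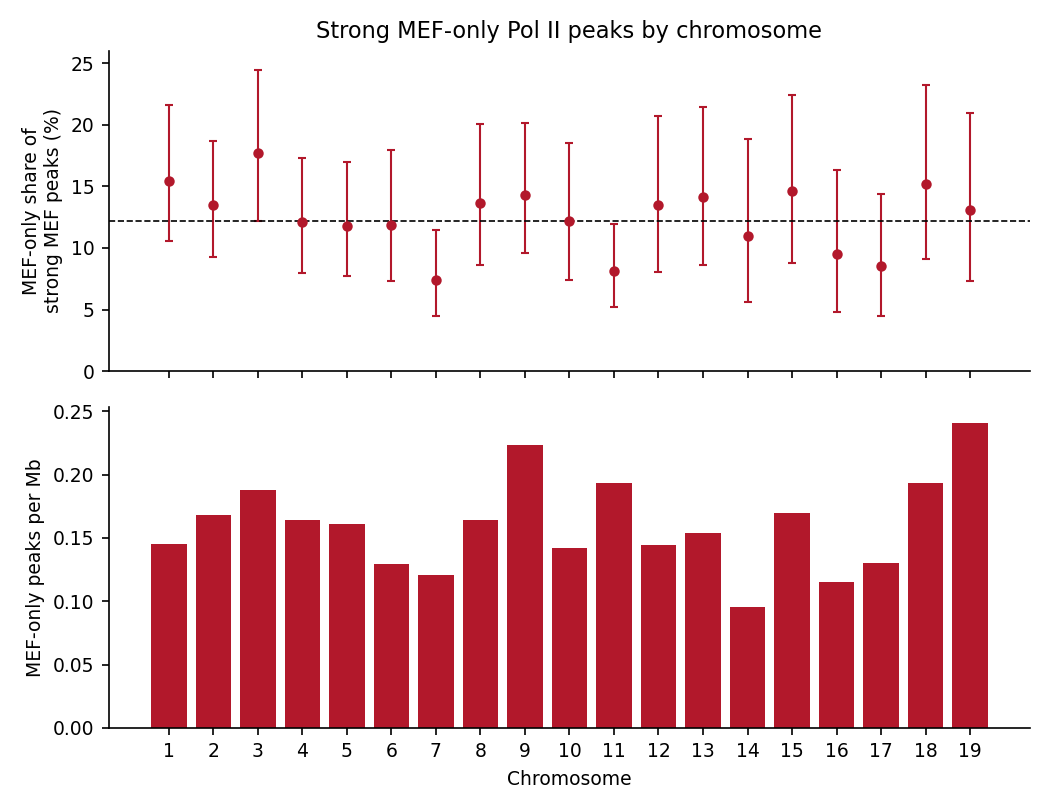
Upper panel, share of strong MEF Pol II peaks that are MEF-only on each autosome (%), with exact 95% intervals for counting error, the dashed line being the share over all autosomes (12.2%). Lower panel, number of these peaks per Mb between the first and last base covered by any list, from 0.0953 on chromosome 14 to 0.241 on chromosome 19.

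Some stretches of a few Mb held several members. Windows of at most 5 Mb were started at a member, cut at the end of their last member, and ranked by the number of members. Their counts are the outcome of a search and carry no test. The cut leaves out shared peaks beyond the last member, which raises the share of members by construction. Over all autosomes that share was 12.2%. On chromosome 5 from 147072302 to 150192945, 7 of 13 strong MEF peaks had no ES partner. On chromosome 1 from 90370324 to 94276519 it was 7 of 11, and on chromosome 8 from 126813740 to 131179308 it was 6 of 7. The window at chromosome 15 from 74915871 to 79348170 differed from these, with 5 members among 24 strong peaks.

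Most members stood apart from each other. When members at most 50 kb apart were joined, 339 stayed single and 40 (10.6%, 7.65 to 14.1%) fell into 17 groups on 10 chromosomes. There were 13 pairs, 3 groups of 3 and 1 group of 5. None of the 17 groups held an ES Pol II peak or a shared strong peak between its first and last base. The rule bars ES peaks within 1000 bp of each member, which fixes this in part, and nothing is read from it. The groups spanned 5.32 to 65.5 kb with a median of 14.4 kb.

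The group of 5 lay at chromosome 9 from 2999893 to 3038511, at the start of the sequence covered on that chromosome, with members scoring 875.29, 327.71, 605.61, 1051.5 and 260.39. Another 6 weaker MEF peaks lay between them, and the nearest ES Pol II peak was 296 kb away. On chromosome 2 from 98502281 to 98507601, 3 members stood within 5.32 kb, with scores of 1055.95, 636.19 and 1467.62. These were the 3 members farthest from ES Pol II, at 2961 to 2966 kb, followed by chromosome 3 from 25042369 to 25044686 (1917 kb) and chromosome 6 from 103598942 to 103599563 (1669 kb). The group on chromosome 6 from 4406523 to 4459005 had another form, with wider peaks of 1684, 3314 and 3927 bp that scored 333.29, 381.41 and 1087.1 and 1 weaker MEF peak between them. On chromosome 12 from 70574806 to 70640321 the scores were 292.2, 370.33 and 678.69, and no other MEF peak lay in the group. The pair on chromosome 5 from 149776218 to 149808337 scored 388.78 and 813.92, lay in the window of 7 members on that chromosome, and came within 4.41 kb of an ES peak.

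**Figure D3:**
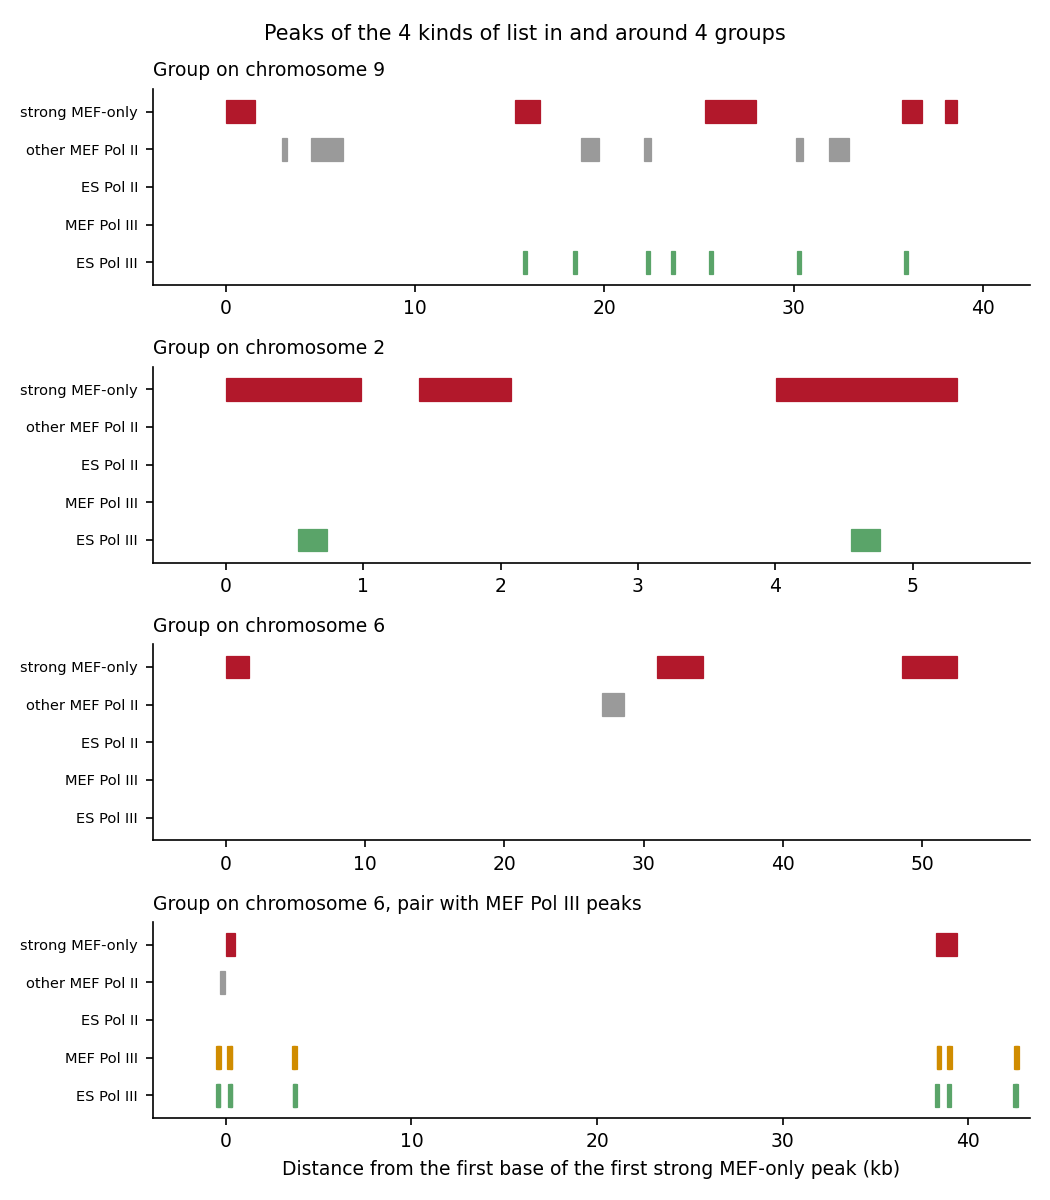
Peaks in 4 groups of strong MEF-only Pol II peaks, drawn to scale, each panel with its own axis, against the distance from the first base of the first such peak (kb); rows show strong MEF-only, other MEF and ES Pol II peaks and Pol III peaks of MEFs and ES cells. No ES Pol II peak falls in any of the 4 groups. ES Pol III peaks without MEF Pol III peaks appear in the groups on chromosomes 9 and 2, and peaks of both in the last group.

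Within 10 kb, the nearest other strong peak of a member was mostly another member, while over all distances it was mostly a shared peak. Across the 3102 strong peaks, the nearest other strong peak was a member for 12%. For the 379 members it was a member for 87 (23.0%, 18.8 to 27.5%), and for the 2723 shared peaks for 285 (10.5%, 9.34 to 11.7%). The gap was widest at short range. Of 30 members whose nearest strong peak lay within 10 kb, 23 (76.7%, 57.7 to 90.1%) had another member there, against 8 of 149 shared peaks (5.37%, 2.35 to 10.3%). Within 50 kb the counts were 40 of 94 (42.6%, 32.4 to 53.2%) and 56 of 840 (6.67%, 5.07 to 8.57%). Without the 22 short or chromosome-end members described above, 16 of 23 (69.6%, 47.1 to 86.8%) had another member within 10 kb and 30 of 84 (35.7%, 25.6 to 46.9%) within 50 kb. Peaks of a pair count once each and are not independent of one another, and close neighbours share part of the stretch that the rule keeps free of ES peaks.

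The nearest ES Pol II peak lay at a median of 47.4 kb (interval 38.7 to 53.0 kb, quartiles 15.0 and 117 kb) from a member. The weaker MEF-only peaks had a median of 37.8 kb (35.4 to 40.4 kb), with an overlapping interval. Of the members, 22 (5.80%) had an ES peak between 1 and 5 kb away, 95 (25.1%) between 5 and 20 kb, 147 (38.8%) between 20 and 100 kb and 107 (28.2%) between 100 and 1000 kb. The 8 members beyond 1000 kb made up 2.11% (0.916 to 4.12%), against 21 of 4134 weaker peaks (0.508%, 0.315 to 0.775%). Without the 22 members set apart above, 4 of 357 (1.12%, 0.306 to 2.84%) lay that far, and the intervals overlapped. The weaker peaks were not filtered in this way. At the near end, weaker MEF-only peaks had an ES peak within 5 kb in 8.78% (7.94 to 9.69%) of cases and members in 5.80% (3.67 to 8.66%). The ES peak nearest to a member was a strong one in its own list, at or above 275.15, in 87 of 379 cases (23.0%, 18.8 to 27.5%), and 25% of all ES peaks pass that limit by construction.

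**Figure D4:**
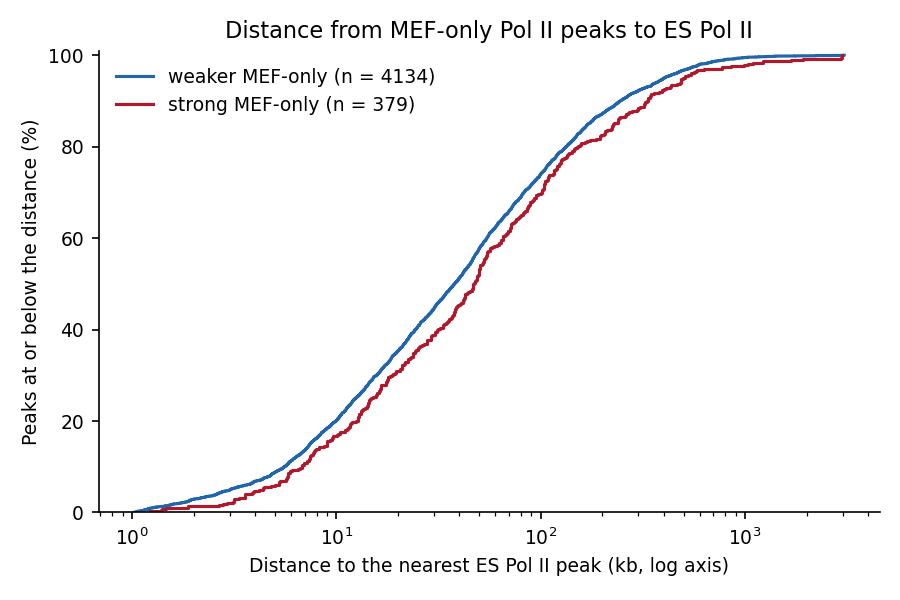
Cumulative share (%) of MEF-only Pol II peaks with their nearest ES Pol II peak at or below the distance on the log axis (kb), for 379 strong (red) and 4134 weaker (blue) peaks. The red curve runs slightly to the right of the blue one, with medians of 47.4 and 37.8 kb.

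The surroundings of the members held peaks of every kind. Within 50 kb, 182 members (48.0%, 42.9 to 53.2%) had a weaker MEF-only peak, 55 (14.5%, 11.1 to 18.5%) a shared strong peak and 201 (53.0%, 47.9 to 58.1%) an ES Pol II peak. No other Pol II peak of either cell type lay within 50 kb of 82 members (21.6%, 17.6 to 26.1%). The weaker MEF-only peaks had much the same surroundings, with 43.8% near another weaker MEF-only peak, 17.3% near a shared strong peak and 57.8% near an ES peak. For 22.5% of them no other Pol II peak of either cell type lay within 50 kb. For 366 members an ES peak was present on both sides, and the stretch between those ES peaks had a median length of 217 kb (quartiles 89.5 and 550 kb). The member was the only MEF peak of that stretch in 129 cases (35.2%, 30.4 to 40.4%).

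At the other extreme were long stretches with many MEF peaks and no ES peak. On chromosome 1, 29 MEF peaks lay from 44608017 to 45825003 inside a stretch of 1646 kb without ES Pol II. Of these, 2 were members, 2 were 4000 bp or wider and 25 were weaker, with a median score of 68.49. A stretch of 1096 kb on chromosome 10 held 19 MEF peaks from 13285279 to 14034179, again with 2 members. The highest score there, 634.88, belonged to a peak of 5886 bp, which the width limit leaves out. A stretch of 563 kb on chromosome 1 held 13 MEF peaks from 163910141 to 164230769, only 1 of them a member. On chromosome 1 from 92509899 to 93036140 there were 12 MEF peaks, 4 of them members, in 541 kb without an ES peak.

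Pol III, which makes tRNA and other short non-coding RNAs, was called at few of these peaks. Members overlapping a Pol III peak of MEFs numbered 5 of 379 (1.32%, 0.430 to 3.05%). Among all 12488 autosomal MEF Pol II peaks narrower than 4000 bp the share was 0.641%, among shared strong peaks 21 of 2723 (0.771%, 0.478 to 1.18%) and among weaker MEF-only peaks 15 of 4134 (0.363%, 0.203 to 0.598%). The interval of the members overlapped both of the others. No further member came within 10 kb, so that the count within 10 kb was also 5 (1.32%), against a background of 1.16%. Shared strong peaks had 39 of 2723 within 10 kb (1.43%) and weaker ones 27 of 4134 (0.653%). Within 50 kb there were 8 members (2.11%, 0.916 to 4.12%), against a background of 2.51%. Shared strong peaks had 91 of 2723 within 50 kb (3.34%) and weaker ones 62 of 4134 (interval 1.15 to 1.92%). At both distances the interval of the members overlapped those of the other sets. The median distance to MEF Pol III was 6580 kb (5458 to 8046 kb), against 6284 kb (5708 to 6808 kb) for shared strong peaks and 7261 kb (6876 to 7717 kb) for weaker ones.

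The 5 members with MEF Pol III differed in which subunits were called. At chromosome 11 from 79516749 to 79518254 (score 490.93), all 3 subunits were called at the end of the Pol II peak with the higher coordinates. POLR3C scored 176 there, POLR3GL 31 and POLR3G 17, and ES cells had a POLR3C peak of 637. The nearest ES Pol II peak was 2.66 kb away. Pol III was therefore called at this site in both cell types, and Pol II within 1000 bp in MEFs only. The same held for a pair on chromosome 6. The peak from 128710538 to 128711007 (300.93) covered POLR3C (115) and POLR3GL (30) peaks of MEFs and POLR3C (1196) and POLR3GL (16) peaks of ES cells. The peak from 128748801 to 128749904 (400.95) covered 2 POLR3C peaks (97 and 111) and 2 POLR3GL peaks (19 and 24) of MEFs and 2 POLR3C peaks (1040 and 832) of ES cells. At chromosome 8 from 113154092 to 113155560 (330.9), 2 POLR3C peaks (142 and 122) and 2 POLR3GL peaks (22 and 18) were called in MEFs, and no Pol III or Pol II peak of ES cells overlapped. At chromosome 1 from 87487655 to 87490026 (329.7), only POLR3G (15) and POLR3GL (16) were called in MEFs, and no Pol III in ES cells. At all 5 members the MEF Pol III peaks scored below the median of their own list. The deposited scores of different lists have no common scale and are not comparable in size.

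More members overlapped a Pol III peak of the other cell type. A Pol III peak of ES cells lay in 11 of 379 members (2.90%, 1.46 to 5.13%). Among all 12488 peaks the share was 0.697%, among shared strong peaks 20 of 2723 (0.734%, 0.449 to 1.13%) and among weaker MEF-only peaks 17 of 4134 (0.411%, 0.240 to 0.658%). Neither interval reached that of the members. Neighbouring members of the chromosome 9 group, the chromosome 2 group and the chromosome 6 pair were counted singly, however. The 11 are therefore not independent, and the interval does not allow for this. Of the 11, 3 are sites on chromosomes 11 and 6 already described. The other 8 carried POLR3C of ES cells alone, with no POLR3G or POLR3GL peak of ES cells and no Pol III peak of MEFs. They included the highest-scored member, on chromosome 9 (POLR3C 1911), 2 members of the chromosome 2 group (1183 and 1534), 3 of the chromosome 9 group (273, 767 and 754) and chromosome 12 from 3109760 to 3110235 (533). The last was chromosome 10 from 126747881 to 126749807, with a Pol II score of 669.79 and a POLR3C score of 442. Their Pol II scores had a median of 964.7, and their median width was 1207 bp. All but the chromosome 10 peak, 7 of 8, were among the 22 members of high score per kb or at a chromosome's start. Without those 22, 4 of 357 members (1.12%, 0.306 to 2.84%) overlapped ES Pol III and 5 of 357 (1.40%, 0.456 to 3.24%) MEF Pol III. The overlap with ES Pol III was thus 2.90% with these peaks and 1.12% without them, and the second interval takes in the share of the shared strong peaks. The shared peaks were not filtered in this way. Of them, 69 passed the limit per kb and 25 lay near a chromosome's start, so the 2 sets are unlike in this comparison.

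**Figure D5:**
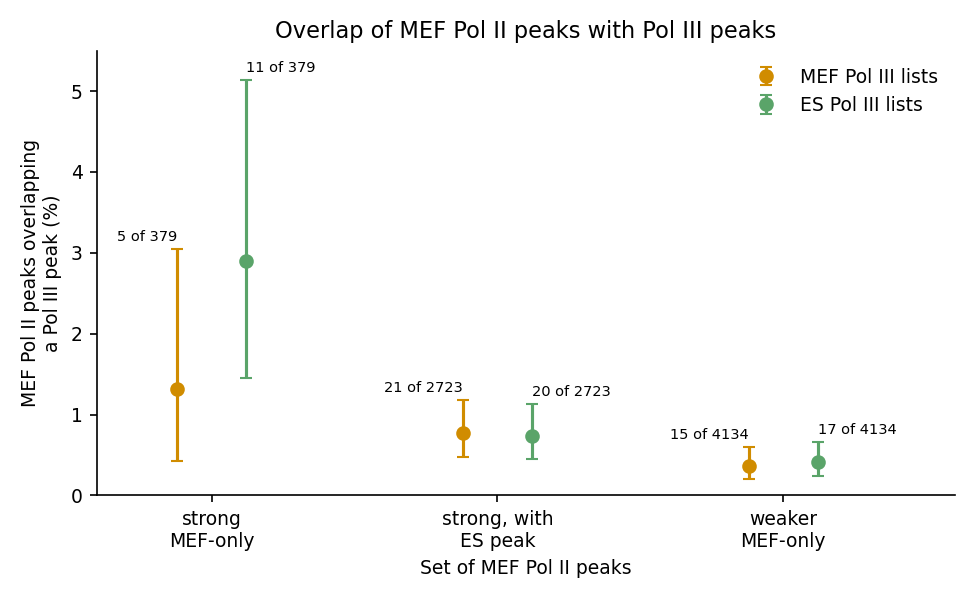
Share (%) of 3 sets of MEF Pol II peaks that overlap a Pol III peak of MEFs (gold) or of ES cells (green) by at least 1 bp, with exact 95% intervals for counting error and the counts above each. The strong MEF-only peaks overlap ES Pol III in 11 of 379 cases, above the intervals of the other sets, and MEF Pol III in 5 of 379. Neighbouring peaks of a group are counted singly, which the intervals do not allow for.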

How the data were processed

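The study deposited 1 peak list for each of 8 immunoprecipitated libraries, and the 2 inputs were left aside. Per the submitters' processing notes, CASAVA 1.8, Bowtie, SAMtools and HOMER were used on build mm9; the Pol II peaks are named as MACS peaks in the files. Each peak's deposited score is the authors' own value from their peak caller, with no stated scale (minimum 50 in both Pol II lists), and was used only to rank and filter within a list. For the peak calling, neither the threshold nor the control, pooling or depth is given in the sources used here.

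Positions in the files were taken as 0-based and are printed 1-based. Distances run edge to edge, and overlap means at least 1 bp. Intervals are exact Clopper-Pearson for shares and exact order-statistic intervals for medians, at 95%. An upper limit beside a count of 0 is 3 counts of the total; all cover counting error only. No test was run, since each group has 1 library. Named peaks are the 10 highest-scored, 3 widest, 5 farthest from ES Pol II, those overlapping MEF Pol III, the 5 largest groups, and 3 on each side of the limits. The narrowest peak, the 5 Mb windows, the stretches without ES peaks, the limit per kb (97.5th percentile of shared peaks), the 500 kb limit and the overlap with ES Pol III were chosen after seeing the data. Members and lists were chosen with earlier results of these data known. Python 3.11.15, numpy 2.4.6, scipy 1.17.1 and pandas 2.3.3 were used, and the distance, overlap and grouping functions were tested on simulated data. The planned counts over gene lists were left out, for lack of gene models on mm9.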

Additional observations from a re-analysis of the deposited data

How the results depend on the processing

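Of 80 values recomputed under 20 settings, 58 stayed within the interval of the reported value (counts within 1.5 times). No paired analysis was possible because each group has 1 library, and no library could be left out. With scores at or above the 90th percentile, 105 peaks remained (8.40% of strong peaks), with 7.62% in groups, 16.2% having a member as nearest strong peak, a median width of 1927 bp, and the highest chromosome share on chromosome 4 (12.3%) instead of 3. At the 50th percentile the values were 1227 peaks, 19.8%, 21.3%, 34.2%, 1384 bp and 25.9% (chromosome 3). Below 2000 bp of width there were 241 peaks (11.0% of strong peaks), 17.8% had a member as nearest strong peak, and the median width was 1398 bp. Joining at 20, 100 and 200 kb put 7.39%, 15.0% and 21.4% of members in groups. The median distance to ES Pol II was 69.3 kb from ES peaks at or above their median score and 125 kb from those at or above the 75th percentile. With MEF Pol III peaks at or above their median score, 0% of members had one within 10 kb (3 counts of 379 allow up to 0.792%). The unknown depth limits every absence of a call.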

Other observations

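The same limits of score and distance were also met by peaks outside the rule. On chromosome X, 12 of 81 MEF Pol II peaks at or above the score limit (14.8%, 7.90 to 24.4%) had no ES Pol II peak within 1000 bp. They were short, with a median width of 1018.5 bp. The highest-scored, from 73843808 to 73844585 (727.75), overlapped 2 POLR3G peaks (40 and 15) and 2 POLR3GL peaks (45 and 16) of ES cells and no Pol III peak of MEFs. The next, from 139917450 to 139917745 (586.62), was 296 bp wide and overlapped a POLR3C peak of ES cells (299).

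Among autosomal peaks of 4000 bp or wider, 26 of 141 above the score limit (18.4%, 12.4 to 25.8%) had no ES peak within 1000 bp. None of the 26 overlapped a Pol III peak of either cell type. Among all 12488 narrower autosomal MEF peaks, only 0.641% overlapped MEF Pol III and 0.697% ES Pol III, so nothing is read from this. The highest-scored of the 26 lay at chromosome 5 from 91319712 to 91324170 (682.89), chromosome 10 from 13683475 to 13689360 (634.88) and chromosome 2 from 102738470 to 102742657 (618.93), at 523, 410 and 171 kb from the nearest ES peak. The chromosome 10 peak lies in the stretch of 19 MEF peaks without ES Pol II. All 3 MEF peaks on chromosome M passed the score limit, and the ES Pol II list has no peak there.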
